A study of Danio rerio with 18 samples.

Results

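Messenger RNAs of genes that modify histones or DNA, or that move nucleosomes, carried 5-methylcytosine (m5C) in the early zebrafish embryo. These genes were chosen by the start of their symbol in the deposited site lists, with 24 starts such as smarc, arid, kdm, kmt, setd, chd, baz, hdac and mbd. They gave 103 of the 5129 genes and 253 of the 9047 distinct sites over all stages, or 580 of 21214 list entries. A few genes share a start by name but not by role. Marked as such were mllt4 (current symbol AFDN, a cell junction protein), hdac10, ncoa4 and sirt3, 4 genes with 6 sites in all. They are counted with the chromatin genes below. Further genes, such as smarcal1, may fit the role only loosely.

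Chromatin regulators decide how tightly DNA is packed and which genes can be read. Writers such as histone methyltransferases and acetyltransferases add marks, erasers such as KDM demethylases and HDAC deacetylases remove them, and remodellers with an ATPase such as SMARCA4 or CHD4, some of them with a BAZ protein as partner of the ATPase, use ATP to slide or evict nucleosomes. The egg loads the embryo with maternal mRNAs, many of them for such regulators, and these are cleared as the embryo's own genome is switched on. In RNA, m5C is placed by enzymes of the NSUN family and by other RNA methyltransferases.

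All samples were wild-type fish of the AB strain, kept near 28.5 °C, and each was a pool of many whole embryos or larvae, with no mutant or treatment. Bisulfite sequencing of polyadenylated RNA was done with 2 libraries at each of 9 stages, named by the hours post fertilisation (hpf). They were 0, 2, 4, 6, 8 and 10 hpf, and then 16, 24 and 48 hpf. Bisulfite leaves m5C to be read as C and turns other cytosines into T, so the methylation level of a site is the percentage of C among its C and T reads. Both libraries of a stage were merged into 1 value per site, so no value here has a spread between replicates, and its error is the 95% Wilson counting interval or the interval named.

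The lists of all genes held 4695, 6205, 5889, 2685, 1252 and 428 sites at 0, 2, 4, 6, 8 and 10 hpf, and between 14 and 25 sites at the 3 later stages. A site is listed only with at least 20 reads and a methylation level of at least 10.0%, so a site that is not listed may be thinly covered, weakly methylated or removed by another filter. The lists hold no expression values. Of 10 maternal germ cell genes 7 had a listed site at some stage, and of 11 names for genes of the zygotic genome or of differentiated tissue, ta and ntla being names of 1 gene, 0 had. Pooled over the stages, these counts do not check the stage labels. In whole embryos, fewer cells of a type and less RNA per cell cannot be told apart.

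The chromatin genes had most of their sites in the first 3 lists. At 0 hpf 134 sites in 71 genes were found, at 2 hpf 189 sites in 93 genes, and at 4 hpf 172 sites in 88 genes. At 6 hpf 64 sites in 45 genes were listed, at 8 hpf 19 sites in 14 genes, and at 10 hpf 2 sites in 2 genes. None was listed at 16, 24 or 48 hpf, when the lists of all genes were themselves very short. Of the 253 sites, 246 were first listed by 4 hpf, 4 at 6 hpf and 3 at 8 hpf.

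**Figure D1:**
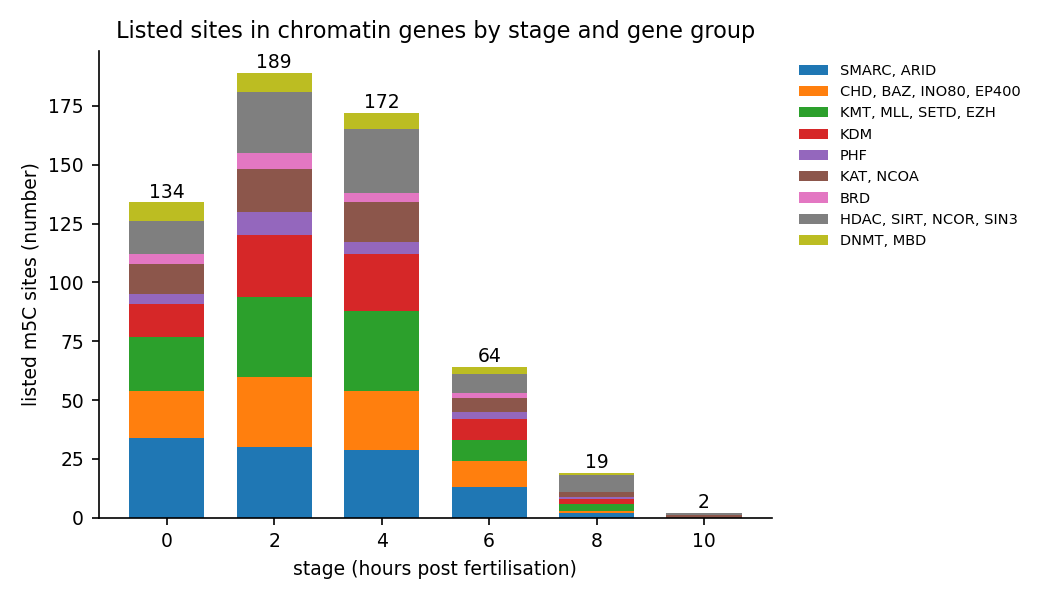
Number of listed m5C sites (vertical axis) in chromatin genes at 0 to 10 hpf (horizontal axis), with bars divided by gene group and totals on top. The total was 189 at 2 hpf, 64 at 6 hpf and 2 at 10 hpf, and each of the 9 gene groups had sites at 0, 2, 4 and 6 hpf.

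As a share of all listed sites, the chromatin genes made up 2.85% at 0 hpf (2.41 to 3.37), 3.05% at 2 hpf (2.65 to 3.50) and then 2.92% (2.52 to 3.38) at 4 hpf. The share was 2.38% (1.87 to 3.03) at 6 hpf, 1.52% (0.974 to 2.36) at 8 hpf and 0.467% (0.128 to 1.69) at 10 hpf. The intervals at 0, 2, 4 and 6 hpf overlap, and those at 8 and 10 hpf lie below the interval at 4 hpf. They count sites as independent, although several sites can lie in 1 gene. As a share of listed genes, the values were 2.28% (1.85 to 2.80) at 4 hpf, 1.44% (0.859 to 2.40) at 8 hpf and 0.568% (0.156 to 2.05) at 10 hpf. Both later intervals by gene overlap the one at 4 hpf.

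Their sites were methylated at ordinary levels for these lists. At 0 hpf their median methylation level was 20.5% (17.5 to 22.4), with 18.4% (16.1 to 20.5) at 2 hpf. It was 18.8% (16.7 to 22.2) at 4 hpf. At 6 hpf it was 16.3% (14.6 to 22.9), and at 8 hpf 16.7% (11.0 to 26.1). Over all listed sites the medians were 19.4%, 19.3%, 19.2%, 18.9% and 16.5% at these stages, each inside the interval of the chromatin genes. Sites of at least 50% were 17 of 134 at 0 hpf (12.7%), 21 of 189 at 2 hpf (11.1%) and 20 of 172 at 4 hpf (11.6%). They were then 5 of 64 at 6 hpf (7.81%) and 0 of 19 at 8 hpf. Over all listed sites these shares were 12.7%, 12.7%, 12.9%, 8.90% and 5.03% at 0, 2, 4, 6 and 8 hpf. Median coverage of the chromatin genes was 132.5, 149, 210, 171.5 and 118 reads at 0, 2, 4, 6 and 8 hpf, against 127, 148, 167, 133 and 97 reads over all sites.

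Listed sites were more numerous per gene in the chromatin genes than over all genes, a difference given as a description. Of the 103 genes, 36.9% had a single site, compared with 58.6% of all 5129 genes, and 42 genes (40.8%) had at least 3 sites, compared with 18.2% of all genes. The mean was 2.46 sites per gene, against 1.76 over all genes. At 4 hpf, 51.1% of the listed chromatin genes had more than 1 site, against 32.5% of all listed genes. The lists give neither transcript length nor expression, so the counts per gene are not scaled to either.

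Each of the 9 gene groups had sites, although not each of the 24 symbol starts. The smarc genes had 27 sites in 10 genes, most of them for subunits of the BAF and PBAF remodellers, but also smarca5, an ISWI ATPase, and smarcal1, which belong to neither. The arid genes, several of which target BAF or PBAF to DNA, had 17 sites in 5 genes. The kdm genes, erasers of histone methylation, had 33 sites in 14 genes. Histone methyltransferase genes had 21 sites in 5 kmt genes, 19 sites in 8 setd genes and 2 sites in ezh2. The chd remodellers had 19 sites in 6 genes and the baz genes, partners of ISWI remodellers, 15 sites in 5 genes. No site was listed for cbx genes, which read methylated histones, for suz12, a Polycomb subunit, or for the tet genes, which oxidise methylated DNA. Current gene names hold 13 cbx, 2 suz12 and 3 tet genes. A gene without a listed site may be thinly covered or weakly methylated, so these absences say little.

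Among the genes with most sites were smarca4 and chd8 with 9 each and kmt2ba with 8, followed by arid2, ncoa2, ncor1 and kdm5bb with 6 each and hdac8 and baz1b with 5 each. In several of them 1 or 2 sites were far more methylated than the others. At 4 hpf the 5 listed sites of kdm5bb, an eraser of a mark of active promoters, ran between 10.5% and 91.3%, and the 5 sites of chd8 between 11.6% and 58.5%. By contrast the 4 sites of hdac8, a class I deacetylase, lay between 11.2% and 15.1% at 4 hpf. At 0 hpf, however, the hdac8 site at position 53184603 had 34.9% of 126 reads, against at most 16.2% at its other sites.

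**Figure D2:**
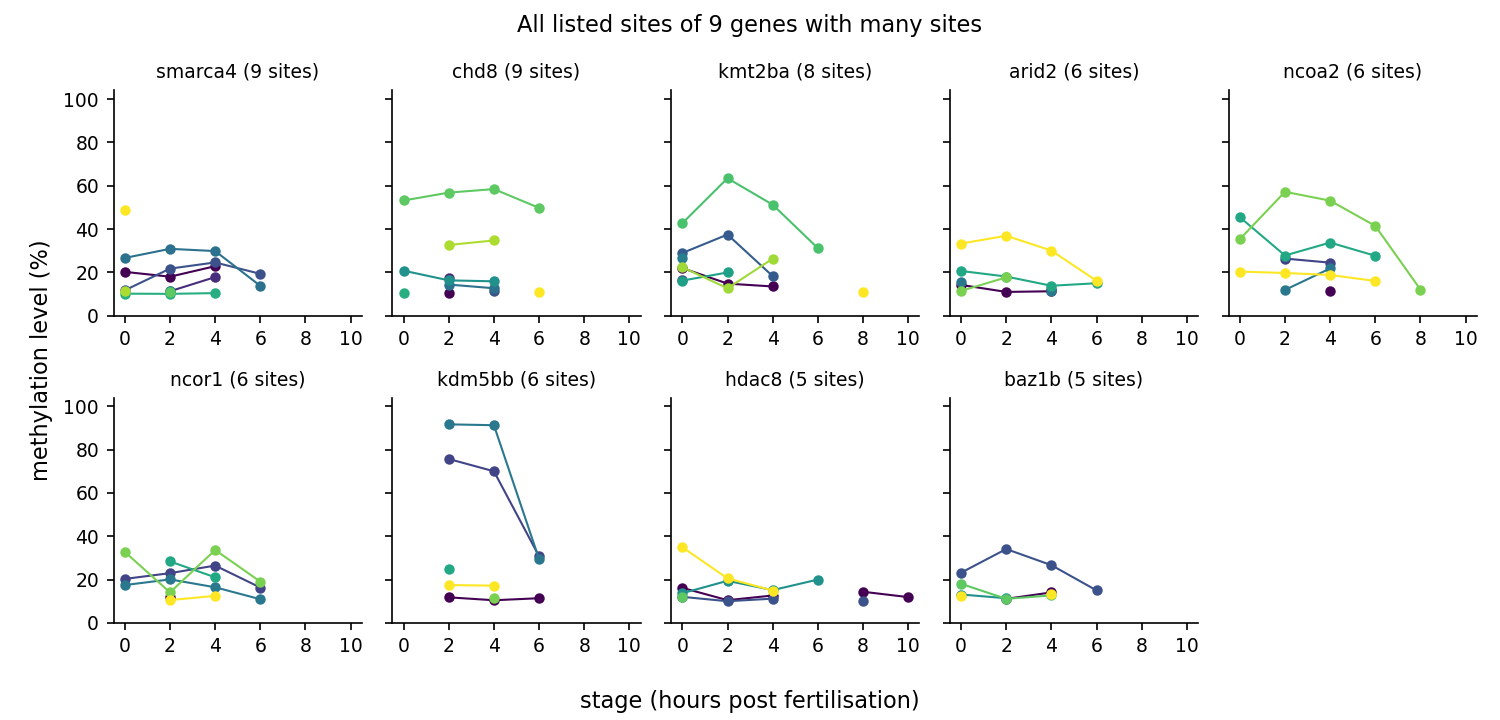
Methylation level in percent (vertical axes) against stage in hpf (horizontal axes) for every listed site of 9 chromatin genes with many sites, 1 panel per gene and 1 colour per site, with lines joining consecutive lists. In kdm5bb, chd8 and kmt2ba 1 or 2 sites stand far above the rest, whereas the hdac8 sites listed at 4 hpf lie between 11.2% and 15.1%. At 0 hpf 1 hdac8 site stands at 34.9%.

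In smarca4, the ATPase that drives the BAF remodeller, the best covered site was weakly methylated. At chromosome 3, position 19095777 (coordinates here are those of the Zv9 assembly), the methylation level was 10.2% of 2506 reads at 0 hpf, 10.1% of 3121 at 2 hpf and 10.5% of 4603 at 4 hpf. A site of the same gene at position 19079192 had 26.7% of 689 reads, 30.9% of 592 and 29.9% of 693 at those stages. Of these 2 sites the deeper was the less methylated.

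The most methylated sites at 4 hpf, among those with at least 100 reads, stood well above the median. Among them were sites in kdm5bb (chromosome 8, position 29170709, 91.3% of 103 reads) and kdm7ab (chromosome 25, position 17662029, 88.0% of 258 reads). Others were in mbd2, a reader of methylated DNA (chromosome 5, position 1454227, 82.0% of 211 reads), and smarcal1, a helicase that rewinds DNA at stalled forks (chromosome 9, position 54025511, 76.4% of 305 reads). At 27 sites in 23 genes the level reached at least 50% in some list. The share over all sites was taken per list only, as given above.

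Sites rarely stood next to each other. Only 6 of the 253 sites (2.37%) lay within 10 nt of another on the same strand, against 3.39% of all sites, and all 6 formed adjacent pairs, such as those in BAZ1A and EP400. Adjacent bases are read by nearly the same molecules. The BAZ1A pair (chromosome 17, positions 9907487 and 9907488) had 61.1% of 586 reads and 61.9% of 559 reads at 4 hpf.

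Between 0 and 4 hpf most sites were listed again at the next stage, and the median changes were small. Of 134 sites listed at 0 hpf, 101 (75.4%, 67.4 to 81.9) were listed again at 2 hpf, and of 189 at 2 hpf, 139 (73.5%, 66.8 to 79.3) at 4 hpf. The same shares over all sites were 71.8% and 73.9%. The median change of the shared sites was -0.655 percentage points at 2 minus 0 hpf (-2.23 to 1.44) and -0.695 points at 4 minus 2 hpf (-1.35 to 0.302), against -0.247 and -0.635 points over all shared sites. Single chromatin sites changed by between -21.8 and 21.9 points at 2 minus 0 hpf. At 4 minus 2 hpf they changed by between -19.2 and 19.6 points.

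For sites in both lists, C and T reads of the stages were compared with Fisher's exact test, with p adjusted over all such sites by the Benjamini-Hochberg method and a threshold of 0.05. At 2 hpf against 0 hpf, 4 of the 101 sites were called higher, where 4.83% of all sites were, and 8 were called lower, where 4.86% of all sites were. At 4 hpf against 2 hpf, 2 of 139 sites were called higher, where 1.92% of all sites were, and 5 lower, where 4.03% of all sites were. The chromatin counts are 3.96% and 7.92% of the 101 sites and 1.44% and 3.60% of the 139. Fisher's test counts reads as independent. A beta-binomial test that allows for extra spread between stages kept 1 call in each direction at 2 against 0 hpf, where 1.1% of all sites were higher and 1.42% lower. At 4 against 2 hpf it called 1 site higher and 0 lower, where 0.305% and 0.589% of all sites were. The extra spread was itself set on the sites shared by the 2 and 4 hpf lists. Few calls between those 2 stages were therefore built in, and their low number is no measure of steady levels.

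Both tests called chd4b, the ATPase of the NuRD deacetylase complex, in both intervals. Its site at chromosome 16, position 34000722 had 51.9% of 239 reads at 0 hpf, 32.3% of 431 at 2 hpf, 48.6% of 601 at 4 hpf and 23.6% of 696 at 6 hpf. The 2 hpf value was lower than that at 0 hpf (adjusted p = 4.01e-05, Fisher's exact test, Benjamini-Hochberg), and the 4 hpf value was higher than that at 2 hpf (1.28e-05). With 2 pooled libraries per stage, a library that differs from its partner cannot be seen.

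The other early call by both tests was in kmt2ba, a histone methyltransferase of active genes. At chromosome 19, position 9891776 the level was 42.7% of 372 reads at 0 hpf, 63.5% of 189 at 2 hpf, 51.3% of 115 at 4 hpf and 31.2% of 48 at 6 hpf. It was higher at 2 hpf than at 0 hpf (adjusted p = 0.00016, Fisher's exact test, Benjamini-Hochberg). The 6 hpf value did not pass the threshold against 4 hpf (adjusted p = 0.0664, exact test). Its coverage was lower at each later stage.

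Some early calls rested on Fisher's test alone. In setdb1a, a methyltransferase of silent chromatin, the site at chromosome 19, position 9745954 had 41.4% of 133 reads at 2 hpf, against 55.5% of 1115 at 0 hpf. In ncoa2, a coactivator of nuclear receptors, the site at chromosome 24, position 14322991 had 27.8% of 424 reads at 2 hpf, against 45.5% of 145 at 0 hpf. A different ncoa2 site, at position 14325130, had 57.2% of 283 reads at 2 hpf, against 35.4% of 82 at 0 hpf. So within 1 mRNA Fisher's test called a site lower and another higher over the same interval, and the beta-binomial test called neither.

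The lists then thinned at 6 hpf. Of 172 chromatin sites listed at 4 hpf, 60 (34.9%, 28.2 to 42.3) were listed again at 6 hpf, against 40.2% over all sites. By gene group the number listed again was 13 of 29 in smarc and arid genes, 9 of 24 in kdm genes, 8 of 25 in chd, baz, ino80 and ep400 genes and 9 of 34 in kmt, mll, setd and ezh genes. It was 8 of 27 in hdac, sirt, ncor and sin3 genes, 6 of 17 in kat and ncoa genes, 2 of 5 in phf genes, 2 of 4 in brd genes and 3 of 7 in dnmt and mbd genes. The intervals of these shares overlap one another.

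The coverage and the level at 4 hpf both went with being listed again. Of sites with fewer than 100 reads at 4 hpf, 7.41% were listed again, compared with 33.3% of those with 100 or more but under 300 reads and 60.7% of those with at least 300. Over all sites these shares were 12.4%, 42.7% and 65.4%. Of sites under 15% at 4 hpf, 15.6% were listed again, compared with 31.1% of those between 15% and 30% and 66.0% of those above, against 19.9%, 41.3% and 62.4% over all sites. The counting interval of each chromatin share holds the share of all sites.

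**Figure D3:**
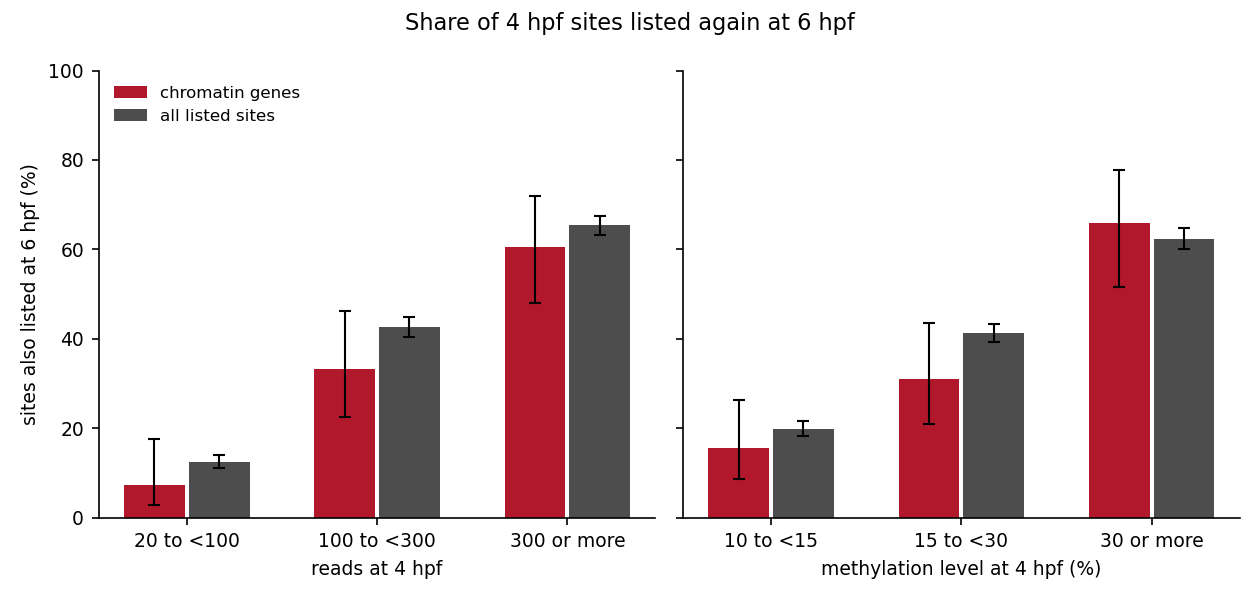
Percentage of sites listed at 4 hpf that were listed again at 6 hpf (vertical axis), by reads at 4 hpf (left) and by methylation level at 4 hpf (right), for chromatin genes (red) and all listed sites (grey), with 95% Wilson intervals. The share was 7.41% under 100 reads and 60.7% at 300 reads or more in chromatin genes, against 12.4% and 65.4% over all sites.

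For many of the sites that were no longer listed, another site of the same gene still was. Of the 112 chromatin sites not listed again at 6 hpf, 50 (44.6%) were in a gene with another site in the 6 hpf list, against 27.7% over all sites. These shares are not scaled to the number of listed sites per gene, which was higher in the chromatin genes. Among the 47 chromatin sites at or above 30% at 4 hpf, 16 were not listed at 6 hpf. The best covered were in ncoa3, a nuclear receptor coactivator (chromosome 11, position 19101411, 45.5% of 378 reads at 4 hpf), and in mbd2 (position 1454227, 82.0% of 211 reads). Neither gene had any listed site at 6 hpf. The ncoa3 site was singled out after its values were seen.

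The sites listed at both 6 and 4 hpf were less methylated at 6 hpf as a group. The median methylation level of the 60 shared sites, in 45 genes, was 18.2% at 6 hpf, against 31.9% at 4 hpf, and the median change was -7.81 points (-13.9 to -4.90). Over all 2367 shared sites the medians were 20.3% at 6 hpf, against 27.3% at 4 hpf, with a median change of -4.99 points. The level was below that of 4 hpf at 48 of the 60 sites. The chromatin sites shared by both lists also started at a higher median than all shared sites.

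Fisher's exact test called 28 of the 60 sites, in 25 genes, lower at 6 hpf (46.7%), where 34.1% of all shared sites were called lower. It called 0 sites higher, where 1.01% of all shared sites were, and 0 were higher at an unadjusted p under 0.05. With the beta-binomial test 24 were lower, where 24.9% of all sites were, and 0 were higher, where 0.169% of all sites were. The called changes ran between -63.4 and -5.13 points. No test of the chromatin genes against the other genes was made.

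Coverage went down at the same time. The median ratio of reads at 6 hpf to reads at 4 hpf was 0.491 in the chromatin sites and 0.488 over all shared sites. At 8 chromatin sites coverage was at least as high at 6 hpf as at 4 hpf. Of these, 5 were called lower (62.5%), where 63.0% of all such sites were. Their median change was -17.8 points (-61.7 to 0.936), against -11.2 points over all such sites. Of the 52 sites with fewer reads at 6 hpf, 23 were called lower (44.2%), where 29.9% of all such sites were. At 11 of the 28 called sites the number of T reads was larger at 6 hpf, and at all 28 the number of C reads was smaller. Read numbers are not scaled between stages, as the lists give no library totals.

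Higher levels went with larger drops. At the 25 shared sites whose level averaged 30% or more over both stages, the median change was -20.1 points (-26.1 to -8.66) and 17 were called lower. At the 35 sites under 30% it was -5.13 points (-7.86 to -1.83) and 11 were called lower. Over all sites the medians were -11.7 points at the 883 more methylated sites and -3.02 points at the 1484 others. Of these, Fisher's exact test called 51.0% and 24.1% lower, where the chromatin counts are 68% and 31.4%. A site near 10.0% that drops leaves the list, which limits the change that can be seen there.

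**Figure D4:**
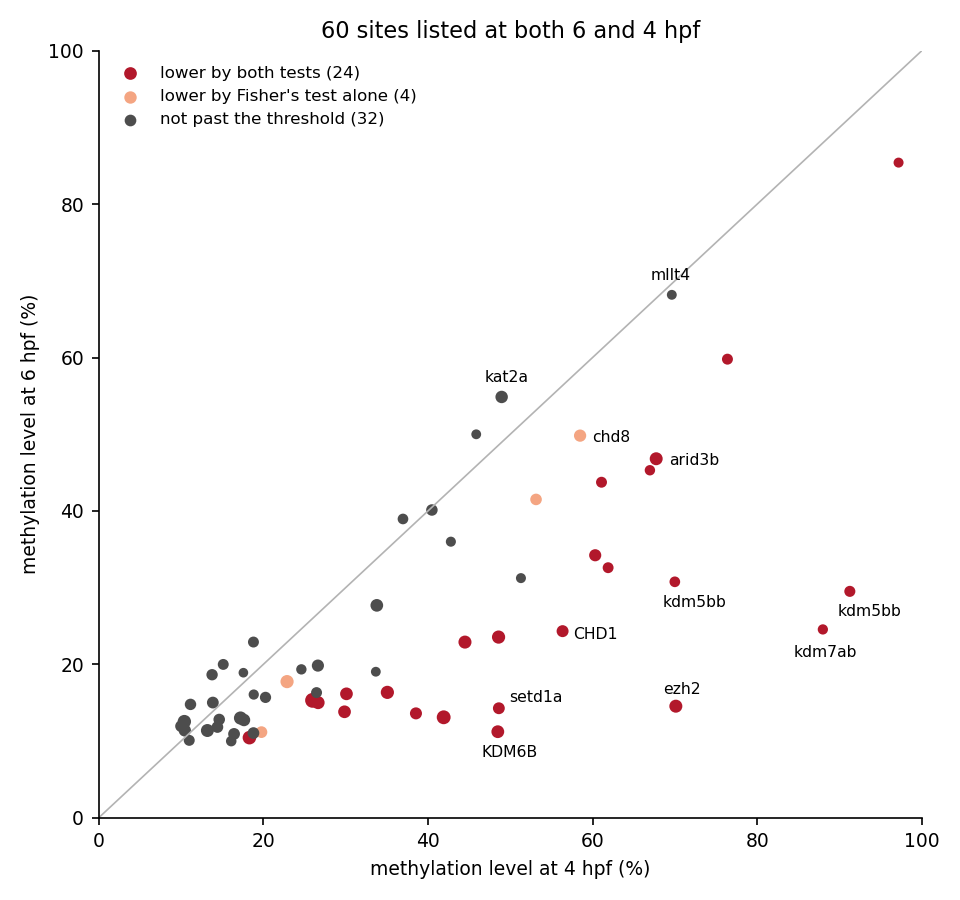
Methylation level in percent at 6 hpf (vertical axis) against that at 4 hpf (horizontal axis) for the 60 chromatin sites listed at both stages, with larger points for more reads at 6 hpf and a line of equal levels. The 24 sites lower by both tests are dark red, 4 lower by Fisher's test alone are light red and 32 sites that did not pass are grey. kat2a and mllt4 lie on or near the line, while kdm5bb, kdm7ab and ezh2 lie far below it.

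The Polycomb methyltransferase ezh2, which writes a mark of silenced genes, gave the strongest single result. At chromosome 24, position 17901600 the level was 77.9% of 488 reads at 2 hpf, 70.1% of 810 at 4 hpf and 14.6% of 584 at 6 hpf. In reads, 85 of 584 were C at 6 hpf, against 568 of 810 at 4 hpf. The change of -55.6 points (-59.6 to -51.1) passed Fisher's exact test at an adjusted p of 1.43e-98 (Benjamini-Hochberg). A less covered ezh2 site, at position 17903709 with 39.6% of 53 reads at 4 hpf, was not listed at 6 hpf.

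A site in KDM6B, an eraser of the mark that ezh2 writes, was also less methylated at 6 hpf. This site, at chromosome 7, position 22942570, had 45.3% of 161 reads at 0 hpf, 42.8% of 332 at 2 hpf, 48.5% of 365 at 4 hpf and 11.2% of 472 at 6 hpf. The change was -37.3 points (-43.0 to -31.3) (adjusted p = 3.5e-32, Fisher's exact test). Coverage was higher at 6 hpf than at any earlier stage, and the number of C reads was 53 at 6 hpf, against 177 at 4 hpf.

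In kdm genes 6 of 9 shared sites were called lower at 6 hpf by Fisher's exact test, where 34.1% of all shared sites were, and 5 by the beta-binomial test, where 24.9% were. The drops at kdm5 and kdm7 genes were among the largest of the chromatin genes. In kdm5bb the site at position 29170709 had 91.7% of 60 reads at 2 hpf, 91.3% of 103 at 4 hpf and 29.5% of 105 at 6 hpf, a change of -61.7 points (adjusted p = 5.96e-20, Fisher's exact test). In its paralog kdm5ba the site at chromosome 11, position 25766300 had 34.2% of 260 reads at 6 hpf, against 60.3% of 552 at 4 hpf. In kdm7ab, an eraser of silencing marks, position 17662029 had 24.6% of 57 reads at 6 hpf, against 88.0% of 258 at 4 hpf. That change of -63.4 points was the largest of the 60.

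Changes at the sites of 1 gene were alike in some genes and unlike in others, as far as the lists can show. In kdm5bb a second site, at position 29168462, had 30.8% of 78 reads at 6 hpf, against 70.0% of 60 at 4 hpf. Another, at position 29168276 and only 186 nt away, had 11.4% of 307 reads at 6 hpf, against 10.5% of 172 at 4 hpf, a change of 0.936 points (-5.35 to 6.44). In arid2, a PBAF subunit, position 1543069 on chromosome 4 had 16.2% of 433 reads at 6 hpf, against 30.1% of 754 at 4 hpf (adjusted p = 5.02e-07, exact test). Position 1520797 of arid2 was C in 29 of 193 reads at 6 hpf, against 67 of 483 at 4 hpf. By contrast both shared sites of smarcal1 were called lower, with 59.8% of 97 reads at 6 hpf, against 76.4% of 305 at 4 hpf, and with 45.3% of 64 reads, against 67.0% of 218. Both BAZ1A sites were lower too, by 17.3 and 29.3 points, but they are adjacent bases read by nearly the same molecules. None of the 3 ncor1 sites passed the threshold, with changes of -14.6, -10.1 and -5.51 points. Altogether 11 genes had more than 1 shared site, 26 sites in all.

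In kmt, mll, setd and ezh genes 5 of 9 shared sites were called lower at 6 hpf by Fisher's exact test, against 34.1% of all shared sites, and 4 by both tests, with a median change of -20.1 points. The call that was lost was in mllt1, which like mllt4 is not a methyltransferase, and the 4 others were in ezh2 and the setd genes that follow. In setd1a, which methylates histones at active promoters, position 32871920 on chromosome 3 had 57.3% of 117 reads at 0 hpf, 48.7% of 230 at 2 hpf, 48.6% of 290 at 4 hpf and 14.3% of 203 at 6 hpf. In setd2, which marks transcribed gene bodies, position 18332416 on chromosome 16 had 22.9% of 598 reads at 6 hpf, against 44.5% of 1510 at 4 hpf. In setdb1b, which marks silent chromatin, position 24092255 on chromosome 16 had 13.6% of 235 reads at 6 hpf, against 38.5% of 441 at 4 hpf. All 3 sites were lower by both tests.

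Of the 8 shared sites in the chd and baz remodeller genes, 7 were called lower at 6 hpf, where 34.1% of all shared sites were, with a median change of -21.2 points. The beta-binomial test called 6 of them, where 24.9% of all shared sites were. Among the 7 were both adjacent BAZ1A bases, which are read by nearly the same molecules. In CHD1, which spaces nucleosomes over transcribed genes, position 8564177 on chromosome 10 had 58.2% of 232 reads at 0 hpf, 60.0% of 402 at 2 hpf, 56.4% of 440 at 4 hpf and 24.3% of 226 at 6 hpf. In baz2a, a subunit of a complex that silences ribosomal genes in mammals, position 6731698 on chromosome 23 had 13.1% of 1358 reads at 6 hpf, against 41.9% of 1732 at 4 hpf. The chd8 site at chromosome 2, position 37815855 had 49.8% of 287 reads at 6 hpf, against 58.5% of 583 at 4 hpf. Its call was lost with the beta-binomial test (adjusted p = 0.213, against 0.0481 by Fisher's exact test).

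In the smarc and arid genes 6 of 13 shared sites were called lower by both tests, where Fisher's exact test called 34.1% of all shared sites and the beta-binomial test 24.9%, with a median change of -7.75 points. The deepest was in smarcc1a, a scaffold of the BAF complex. At chromosome 16, position 45199618 the level was 29.0% of 3912 reads at 0 hpf, 28.5% of 2666 at 2 hpf, 26.0% of 2586 at 4 hpf and 15.3% of 3937 at 6 hpf. A site 57 nt away, at position 45199675, had 13.2% of 4802 reads at 4 hpf and was not listed at 6 hpf. In arid3b, a DNA-binding protein, position 29938996 on chromosome 25 had 46.8% of 549 reads at 6 hpf, against 67.7% of 685 at 4 hpf.

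Counts in the other groups were small, and 34.1% of all shared sites were called lower by Fisher's exact test. In hdac, sirt, ncor and sin3 genes 1 of 8 was called lower by that test. In kat and ncoa genes 2 of 6 were called lower, among them kat7, a histone acetyltransferase, with 16.4% of 697 reads at 6 hpf, against 35.1% of 1856 at 4 hpf (chromosome 12, position 6675117). In brd genes, readers of acetylated histones, 1 of 2 was called lower, in brd8 with 10.5% of 1014 reads at 6 hpf, against 18.3% of 1485 at 4 hpf (chromosome 14, position 7693347). None of 3 dnmt and mbd sites or of 2 phf sites was called. The beta-binomial test called 1 site lower in the hdac, sirt, ncor and sin3 genes, 1 in the kat and ncoa genes and 1 in the brd genes. It called 24.9% of all shared sites lower. The difference between groups was not tested.

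Fisher's exact test left 32 of the 60 shared sites uncalled, and at 12 of these the level was higher at 6 hpf. A site without a call need not have equal levels at both stages. In kat2a, the acetyltransferase of the SAGA coactivator, position 17320685 on chromosome 3 had 35.5% of 713 reads at 0 hpf, 45.9% of 634 at 2 hpf, 49.0% of 625 at 4 hpf and 54.9% of 339 at 6 hpf. It then had 29.7% of 421 reads at 8 hpf and 13.5% of 541 at 10 hpf. The 6 hpf value differed from that at 4 hpf by 5.91 points (-0.699 to 12.4), which did not pass the threshold, and was the largest upward difference of the 60 sites. The 8 hpf value was lower than at 6 hpf (adjusted p = 1.51e-11, Fisher's exact test), and that at 10 hpf lower than at 8 hpf (1.18e-08). It was the only one of the 253 sites in 6 lists.

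In smarcb1a, a core BAF subunit, position 31787919 on chromosome 8 had 44.8% of 2214 reads at 0 hpf, 41.3% of 293 at 2 hpf, 40.5% of 247 at 4 hpf, 40.1% of 152 at 6 hpf and 10.4% of 595 at 8 hpf. The level at 6 hpf differed from that at 4 hpf by -0.354 points (-10.1 to 9.56). At 8 hpf the reads were 62 C and 533 T, against 61 C and 91 T at 6 hpf. So the level was lower at 8 hpf (adjusted p = 4.24e-15, Fisher's exact test) with about as many C reads and many more T reads.

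At 8 hpf the lists were shorter again. Of 64 sites listed at 6 hpf, 13 in 11 genes were listed again at 8 hpf (20.3%, 12.3 to 31.7), against 28.1% over all sites. Their median change was -25.0 points (-29.7 to -0.475), against -8.99 points over all shared sites. Fisher's exact test called 8 lower, where 46.2% of all sites were, and 0 higher, where 3.58% of all sites were (0 at an unadjusted p under 0.05). The beta-binomial test also called 8 lower, where 40.6% of all sites were, and 0 higher, where 2.52% were. With 100 reads or more required at both stages, fewer of the 13 sites entered, and 3 were called lower.

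BAZ1A, a partner of an ISWI remodeller, dropped in steps. Position 9907488 on chromosome 17 had 68.5% of 241 reads at 0 hpf, 65.0% of 457 at 2 hpf, 61.9% of 559 at 4 hpf, 32.6% of 92 at 6 hpf and 11.5% of 390 at 8 hpf. It was lower at 6 hpf than at 4 hpf (adjusted p = 1.28e-06, Fisher's exact test) and lower at 8 hpf than at 6 hpf (1.3e-05). A second copy of this gene is listed as baz1a, so reads of the pair could be divided between them.

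The ncoa2 site at position 14325130 had 41.5% of 159 reads at 6 hpf and 12.1% of 297 at 8 hpf, which was lower at 8 hpf (adjusted p = 2.49e-11, Fisher's exact test). In kdm4ab, a histone demethylase, position 17299324 on chromosome 2 had 37.0% of 449 reads at 4 hpf, 39.0% of 77 at 6 hpf and 10.2% of 196 at 8 hpf (adjusted p = 6.53e-07 for 8 against 6 hpf, exact test). A further kdm4ab site, at position 17306832, had 96.3% of 108 reads at 2 hpf and 93.6% of 47 at 4 hpf, was missing from the 6 hpf list and had 22.9% of 131 reads at 8 hpf. The last site was singled out after its values were seen.

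**Figure D5:**
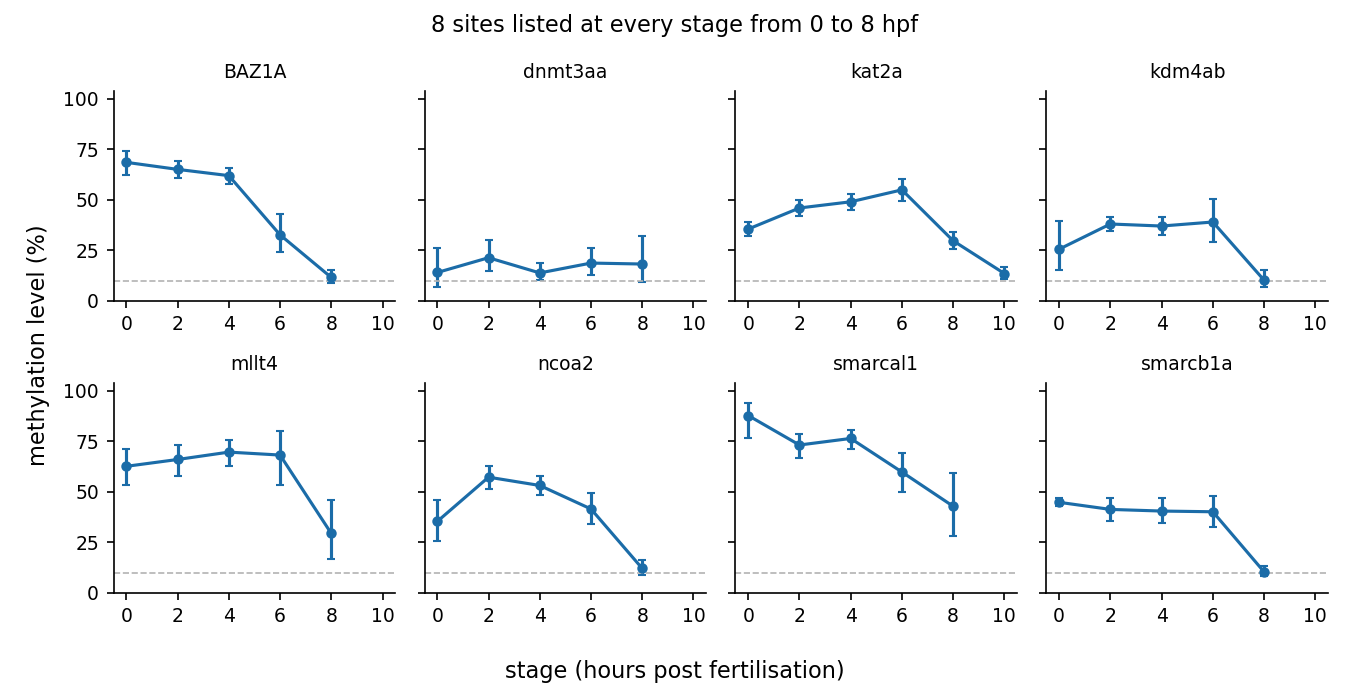
Methylation level in percent (vertical axes) with 95% Wilson intervals against stage in hpf (horizontal axes) for 8 chromatin sites listed at every stage between 0 and 8 hpf, and the dashed line marks the 10.0% minimum of the lists. Of these 8 sites, 7 had their lowest value of these stages at 8 hpf, and kat2a, also listed at 10 hpf, went on to 13.5% there.

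Altogether 11 sites were listed at each stage between 0 and 8 hpf, and 8 of them, in 8 genes, are shown. Besides those above these were 1 site each in smarcal1, mllt4 and dnmt3aa. The median methylation levels of the 8 sites at 0, 2, 4, 6 and 8 hpf were 40.1%, 51.6%, 51.0%, 40.8% and 15.2%. The 597 such sites over all genes had 37.2%, 38.7%, 37.0%, 32.2% and 18.2%. These sites were chosen by being listed, and sites of high level remain listed more easily.

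At smarcal1, position 54025511, the level was 42.9% of 35 reads at 8 hpf, against 59.8% of 97 at 6 hpf, and did not pass the threshold (adjusted p = 0.193, exact test).

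In dnmt3aa, which methylates DNA, the level at chromosome 20, position 47342349 was 14.0% of 50 reads at 0 hpf, 21.3% of 108 at 2 hpf, 13.8% of 254 at 4 hpf, 18.7% of 134 at 6 hpf and 18.2% of 44 at 8 hpf. No consecutive pair of these passed the threshold. It was the only 1 of these 8 sites whose lowest value was not at 8 hpf.

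At 10 hpf 2 chromatin sites were left, in kat2a and hdac8. The hdac8 site at chromosome 7, position 53160579 had 16.2% of 1359 reads at 0 hpf, 10.5% of 1277 at 2 hpf, 12.7% of 1154 at 4 hpf, 14.4% of 285 at 8 hpf and 11.9% of 302 at 10 hpf, and was missing from the 6 hpf list. Its 10 hpf value did not pass against 8 hpf (adjusted p = 0.587, exact test). Of the 2 sites 1 was called lower at 10 hpf, where 28.7% of all 334 shared sites were, and 0 higher, where 3.89% were (0 at an unadjusted p under 0.05, Fisher's exact test).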

How the data were processed

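RNA bisulfite sequencing of polyadenylated RNA covered 9 stages with 2 libraries each, 18 in all, and their titles give the stage. As the study's methods and the submitters' processing notes state, reads (bcl2fastq 2.17) were trimmed with cutadapt and Trimmomatic and aligned with HISAT2 (given there as 2.10) to the converted Zv9 genome, with unmapped reads then given to Bowtie2 and converted transcripts. Reads with many unconverted cytosines and genes resisting conversion were removed, and a site seen in 1 replicate alone, where the other lacked coverage, needed a minimum number of C reads. Reads that fit several places could enter through the transcripts, which makes close paralogs less certain.

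The authors deposited 1 list of sites per stage, merged over replicates. Their coverage is the count of C and T reads the authors found over a site, with a minimum of 20. Their methylation level is a fraction that the authors computed from these reads, with a minimum of 0.1, here printed in percent. The authors' combined p-value of each site was left aside. Multiplying level by coverage gave whole C reads throughout (tolerance 1e-06), and the tests used them. The depth of each value is its coverage. Wilson 95% intervals cover counting error only, and PCR copies are not told apart. Medians have distribution-free 95% intervals over sites, and differences of levels have Newcombe intervals.

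Genes were taken by the start of the symbol given in the lists, ignoring case, and chd7 and arid1aa are not part of the set. Members and lists were chosen with earlier results of these data known. Of the 103 gene IDs, 84 had an entry among current gene names. Sites in the lists of both of 2 consecutive stages were compared by a two-sided Fisher's exact test of their C and T reads, with Benjamini-Hochberg adjustment over every site compared between those stages, and 0.05 as threshold (Python 3.11.15, scipy 1.17.1, numpy 2.4.6, pandas 2.3.3). The tests were checked on reads simulated at the observed coverages, without extra spread or with the read correlation given next. The simulation did not apply the list minimums of coverage and level, so it does not show how the tests behave under them. Alternatives were a z test with beta-binomial variance (read correlation 0.00232, set on 2 and 4 hpf), Bonferroni adjustment, higher minimums of coverage or level, means, 1 site per gene, matching of genes or within 2 nt, and leaving out genes of other roles.

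Sites were named by rule: those listed at each stage between 0 and 8 hpf; among called sites of 100 or more reads in both lists, the 5 largest changes each way between 4 and 6 hpf and up to 3 elsewhere; those listed at 10 hpf or later; the 5 highest at 4 hpf; sites within 10 nt of another; the 2 deepest of each group; and the 10 genes with most sites. Some results under this rule are not reported here. Further sites of the same groups were chosen after their values were seen. Genomic location and sequence context were not analysed here.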

Additional observations from a re-analysis of the deposited data

How the results depend on the processing

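Without replicate values no spread between libraries enters any test, and sites below 20 reads or 10.0% are not seen. No paired analysis was possible because each list combines both libraries of a stage, and for the same reason leaving out a replicate was not run.

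Of the counts, shares and medians recomputed, 95 values stayed and 32 moved. No median change with an interval clear of 0 changed direction. Counts and shares have no direction, and the change at a single site is the same under each alternative, so its direction could not differ. With a level of at least 20% the chromatin sites were 70, 86, 79, 25, 7 and 0 at 0, 2, 4, 6, 8 and 10 hpf, as fewer sites enter. Counting genes in place of sites, their share was 2.36%, 2.33% and 2.28% at 0, 2 and 4 hpf. The mean without weights was 27.3%, 25.7%, 26.4% and 23.9% at 0, 2, 4 and 6 hpf, and the mean weighted by coverage 22.0% and 23.7% at 2 and 4 hpf. Among earlier sites of 100 reads or more, 83.8%, 79.7% and 47.5% were listed again at 2, 4 and 6 hpf, and with matching of genes 94.4%, 86.0% and 51.1% of genes were. At a mean level of at least 30% the median change was -4.01 points at 2 minus 0 hpf and -20.1 points at 6 minus 4 hpf. At 4 minus 2 hpf that median was 0.221 points, where the value over all shared chromatin sites was -0.695 points. The beta-binomial test called 1 site higher and 1 lower at 2 against 0 hpf, and 1 higher and 0 lower at 4 against 2 hpf, and the Bonferroni adjustment gave 1 and 1, then 1 and 0. With at least 100 reads at both stages 3 sites were called lower at 8 against 6 hpf, again with fewer sites. The cause of the other differences was not tested. Of single sites, 16 calls by Fisher's exact test were lost with the beta-binomial test and 109 results kept their side of the threshold.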

Other observations

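Listed sites were also found in chromatin genes whose symbols fall outside the set. Of 73 further names, such as subunits of Polycomb, NuRD and acetyltransferase complexes, 49 had a listed site, in 56 genes with 107 sites. At 0, 2, 4, 6 and 8 hpf 34, 41, 39, 18 and 4 of the names had a site, and 0 had one at 10 hpf or later. A name counted if any of its paralogs had a site. The lists hold only genes with sites, so no such share over all genes can be given. These counts therefore do not show a trait of chromatin genes. Of 25 sites listed at both 6 and 4 hpf, Fisher's exact test called 14 lower at 6 hpf, against 34.1% of all shared sites, and 0 higher, against 1.01%. The beta-binomial test called 11 lower, against 24.9%, and 0 higher, against 0.169%. The median change was -11.0 points. Of 4 sites listed at both 8 and 6 hpf, 4 were lower at 8 hpf, against 46.2% of all shared sites by Fisher's exact test.

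The Polycomb subunit eed, a partner of ezh2, had 2 sites that differed. At chromosome 1, position 583774 the level was 13.4% of 253 reads at 6 hpf, against 37.5% of 586 at 4 hpf (adjusted p = 5.63e-12, Fisher's exact test). At position 584727 it was 29.1% of 767 reads at 6 hpf, against 30.5% of 1274 at 4 hpf. In MTA1, a NuRD subunit, position 37757850 on chromosome 17 had 60.5% of 461 reads at 6 hpf, against 79.8% of 699 at 4 hpf, and then 11.1% of 406 reads at 8 hpf. Both MTA1 steps were lower by both tests. In ing1, a reader of histone methylation, position 9030385 on chromosome 9 had 16.2% of 173 reads at 6 hpf, against 75.3% of 255 at 4 hpf. These genes were chosen after their values were seen.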
